A study of Mus musculus with 8 samples.

Results

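The COP9 signalosome subunits are the proteins of a conserved complex of the ubiquitin system, and their mRNAs were followed here in mouse skeletal muscle after knockdown of UBA1. The members were chosen by name as the genes for the known subunits: Gps1 (also called Csn1), Cops2, Cops3, Cops4, Cops5, Cops6, Cops7a, Cops7b, Cops8 and Cops9. These are 10 of the 41709 genes in the deposited expression table. All 10 were found under these symbols, and all 10 passed the filter on low values that left 11530 genes for testing.

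The study delivered a pool of distinct siRNAs into the tibialis anterior (TA), a fast muscle of the lower leg, of male C57BL/6J mice aged 3 months by electroporation. The control group, siNT, received 1500 pmol of non-targeting siRNAs, and the knockdown group, siUBA1, received 1500 pmol of siRNAs against Uba1, which encodes the main E1 enzyme that activates ubiquitin. Muscles were collected 7 days later and their RNA was sequenced, with 4 muscles per group. The siNT and siUBA1 muscles that carry the same replicate number came from opposite legs of 1 mouse. Every siNT muscle was a right TA and every siUBA1 muscle a left TA, so that leg and siRNA cannot be told apart. The comparison asks what a partial loss of UBA1 does to the muscle transcriptome, and here what it does to these subunits.

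The treatment tags of siUBA1 muscles 2, 3 and 4 name UBA2, UBA3 and UBA4 in place of UBA1, whereas their titles and descriptions name UBA1. The level of Uba1 mRNA, in TPM (a length-corrected share of all transcripts), was 60.6, 59.0, 63.6 and 59.1 in siNT muscles 1 to 4, and 18.1, 6.77, 15.8 and 23.1 TPM in siUBA1 muscles 1 to 4. All siUBA1 muscles were thus below all siNT muscles, with a log2 difference of -1.98 (SE 0.290, adjusted p = 0.0527 by limma). The same test with the mouse as a block gave an adjusted p of 0.0278. Uba2 was at 12.9 TPM in siUBA1 muscle 2, against 13.0 to 15.8 TPM in siNT muscles, and Uba3 at 14.1 TPM in siUBA1 muscle 3, against 10.5 to 13.7 TPM in siNT muscles. Mocs3, the mouse gene for UBA4, was at 1.80 TPM in siUBA1 muscle 4, against 1.67 to 2.34 TPM in siNT muscles. The genes named in these tags were thus close to, within or above the siNT ranges in the muscles that carry them, and the muscles were grouped by their descriptions.

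The COP9 signalosome removes NEDD8, a small ubiquitin-like protein, from cullins, the scaffolds of the cullin-RING ubiquitin ligases. NEDD8 switches these ligases on, and its cyclic attachment and removal lets cullins exchange the receptors that pick their substrates. NEDD8 is activated by its own E1 enzyme, made of NAE1 and UBA3, rather than by UBA1. Cops5 encodes the metalloprotease that cuts NEDD8 off, and Cops6 its inactive partner, both with an MPN domain. Gps1, Cops2, Cops3, Cops4, Cops7a, Cops7b and Cops8 encode subunits with a PCI domain, which build the scaffold. Cops7a and Cops7b are paralogs that take the same place in the complex, and Cops9 encodes a small acidic subunit.

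The genes lie on 5 mouse autosomes. In the GENCODE M39 annotation of GRCm39, where all 10 are protein coding, Cops7a lies at chr6:124935032-124944560 on the minus strand and Cops7b at chr1:86510616-86537097 on the plus strand. Cops5 (chr1:10094826-10108393, minus strand), Cops8 (chr1:90530703-90541138, plus strand) and Cops9 (chr1:92564867-92569707, minus strand) are on the same chromosome as Cops7b. Gps1 (chr11:120675098-120680190, plus strand) and Cops3 (chr11:59708231-59730714, minus strand) share a chromosome, as do Cops4 (chr5:100666122-100695671, plus strand) and Cops6 (chr5:138159323-138163318, plus strand). Cops2 lies at chr2:125671069-125701141 on the minus strand.

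The promoters of the paralogs Cops7a and Cops7b are printed because these genes differed most in level within the family. Both are RefSeq sequences on GRCm38.p6, from 250 bases before to 50 bases after the start of transcription, written 5′ to 3′ on the strand of the gene with each CpG in capitals. Cops7a is at chr6:124965463-124965762 on the minus strand, the first of 2 listed entries, and Cops7b at chr1:86582671-86582970 on the plus strand.
Cops7a: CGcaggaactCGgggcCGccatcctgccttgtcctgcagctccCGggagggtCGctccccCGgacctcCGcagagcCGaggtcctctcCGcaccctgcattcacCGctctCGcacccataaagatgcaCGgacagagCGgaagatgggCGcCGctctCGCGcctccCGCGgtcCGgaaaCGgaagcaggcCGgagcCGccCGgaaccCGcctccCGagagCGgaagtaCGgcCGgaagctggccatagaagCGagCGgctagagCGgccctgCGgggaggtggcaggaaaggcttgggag
Cops7b: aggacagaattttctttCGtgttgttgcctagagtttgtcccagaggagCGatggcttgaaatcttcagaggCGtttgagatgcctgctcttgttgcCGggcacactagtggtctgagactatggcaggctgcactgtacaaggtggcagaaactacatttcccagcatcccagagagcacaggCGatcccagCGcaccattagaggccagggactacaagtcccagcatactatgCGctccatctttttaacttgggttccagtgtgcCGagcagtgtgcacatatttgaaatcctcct

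The Cops7a window held 33 CpG and 70% G and C, and the Cops7b window 8 CpG and 51% G and C. Over the first listed promoters of the 9 members in the RefSeq table, the G and C content ranged from 51% to 77% and the number of CpG from 8 to 48. The medians over all 32851 promoters of the table were 52.7% and 7. Cops7b thus had the fewest CpG among these members and Gps1 the most. Cops5 has no entry in the table.

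In the same windows 6 motifs were searched on both strands. The ETS core CCGGAAG stood in 6 of the 9 promoters (Gps1, Cops2, Cops3, Cops7a, Cops8 and Cops9) and in 8.86% of all promoters. The box GGGCGG, bound by SP and KLF factors, stood in 5 of 9 (Gps1, Cops4, Cops6, Cops7a and Cops8) and in 35.7% of all promoters. CCAAT was found only in Cops4, against 37.4% of all promoters. The NRF1 motif, TATAAA and TGACGTCA were in 0 of the 9, with shares of 6.23%, 13.6% and 1.79% over all promoters. None of the 6 was found in the Cops7b window.

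Except for Cops7b, the subunits were expressed at like levels. Since TPM is corrected for transcript length, levels can be set side by side across genes. Over the 8 muscles the mean was 60.9 TPM for Cops7a, 57.5 for Cops6, 52.9 for Cops5, 48.4 for Cops9, 42.5 for Cops2, 38.8 for Gps1, 38.6 for Cops3, 35.6 for Cops8, 30.2 for Cops4 and 3.88 for Cops7b. The ranges over the 8 muscles overlapped between each member and the next in this order, except between Cops8 and Cops4 and between Cops4 and Cops7b. Gps1 was above Cops3 in 4 of 8 muscles, so their order is not set by these data, whereas Cops9 was above Cops2 in 8 of 8. Among the genes tested, the siNT levels of 9 members fell between percentiles 82.9 and 91.1, and that of Cops7b at percentile 30.9. Cops7b was 7.76-fold below Cops4, its neighbor in the order.

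**Figure D1:**
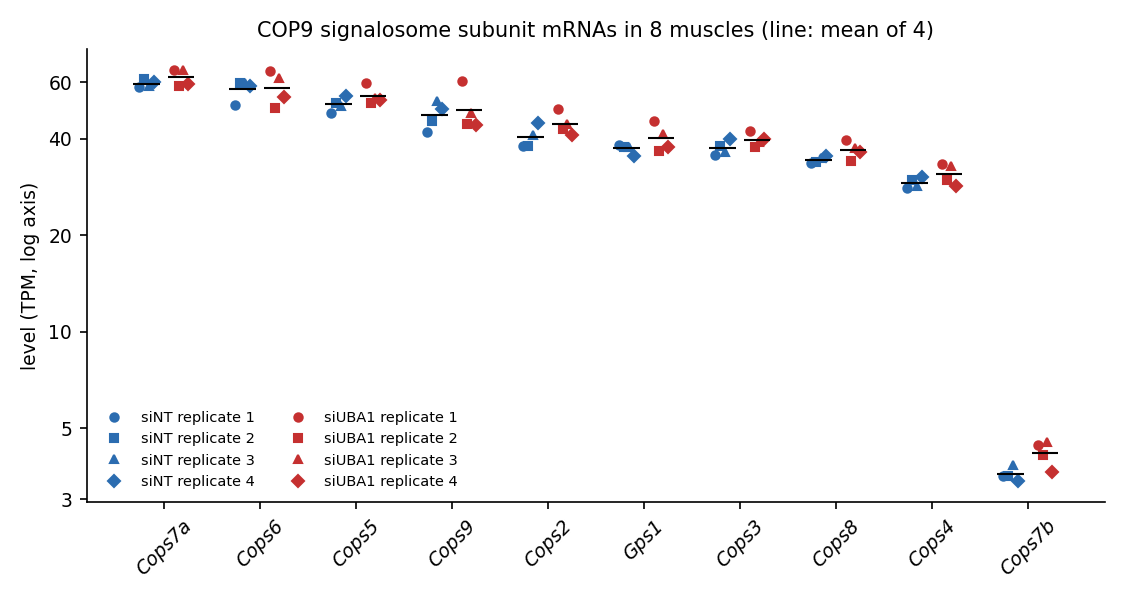
Level of each subunit in TPM (log axis) in the 4 siNT and 4 siUBA1 muscles, 1 point per muscle, ordered by the mean over 8 muscles. Cops7a to Cops4 sit between 28.0 and 65.7 TPM, and Cops7b sits between 3.41 and 4.52 TPM.

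None of the 10 subunits changed with the siRNA at an adjusted p under 0.05 (limma), where 3 of the 11530 genes tested did (0.026%). At an unadjusted p under 0.05 the counts were 0 higher and 0 lower, against 16% and 1.98% of all genes. The log2 difference, the mean log2(TPM + 1) of siUBA1 muscles minus that of siNT muscles, was above 0 for 10 of 10 members, as it was for 81.8% of all genes. The members' median was 0.088 and that of all genes 0.11. After scaling each muscle by the median ratio of its genes to their mean over the muscles, 2 of 10 members were above 0 (Cops2 and Cops7b), against 50.7% of all genes, and the median was -0.031. The direction of 8 members thus depended on the scaling. The 95% intervals of the log2 differences reached from a 13.3% lower level at the lowest (Cops6) to a 27.2% higher level at the highest (Cops7b), on the TPM + 1 scale. After median-ratio scaling they reached from a 17.0% lower level (Cops9) to a 15.6% higher level (Cops7b).

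**Figure D2:**
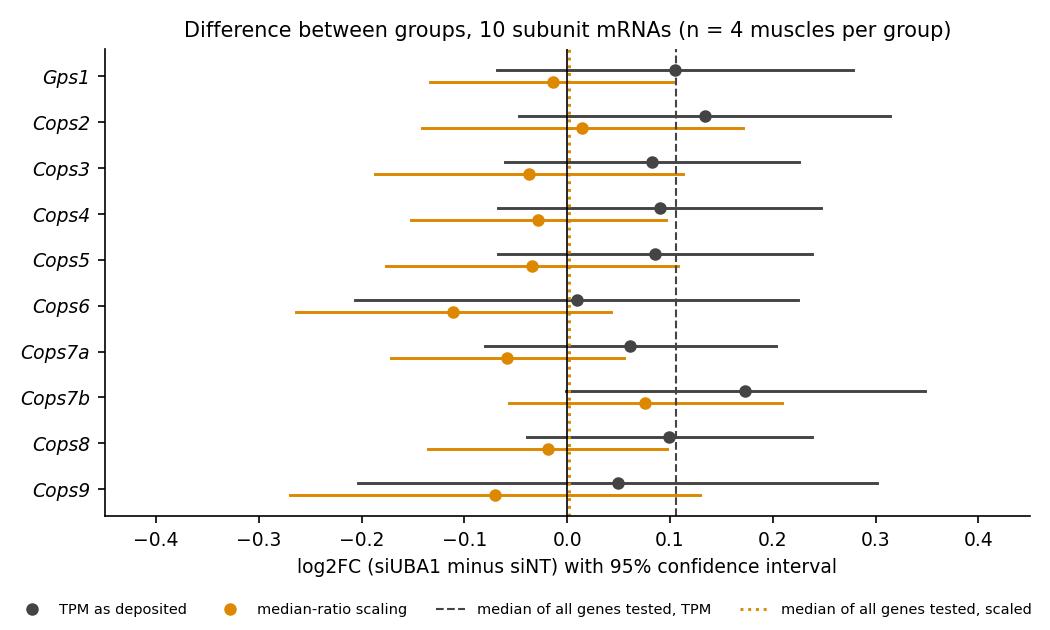
Log2 difference of each subunit (siUBA1 minus siNT, on log2(TPM + 1)) with its 95% interval from limma, for the deposited TPM and after median-ratio scaling, with the median of all genes tested as a line. On the deposited scale all 10 points lie between 0.0091 and 0.17 and every interval includes 0, and after scaling 8 of 10 points lie below 0.

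Cops5, the protease, was at 48.1, 51.7, 50.8 and 54.4 TPM in siNT muscles 1 to 4, and at 59.8, 51.7, 53.8 and 52.7 TPM in siUBA1 muscles 1 to 4. siUBA1 muscle 1 alone was above all siNT muscles, and the rest of the values overlapped. The means were 51.3 ± 2.58 and 54.5 ± 3.61 TPM (SD, n = 4), a log2 difference of 0.085 (SE 0.0678, adjusted p = 0.495 by limma). Without siUBA1 muscle 1 the difference was 0.041, and without siNT muscle 1 it was 0.056.

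Cops6, its partner, was at 51.1, 59.6, 59.6 and 58.5 TPM in siNT muscles, and at 65.1, 49.9, 62.1 and 54.0 TPM in siUBA1 muscles. The siUBA1 values spread on both sides of the siNT values, with 2 above and 1 below all of them. The means were 57.2 ± 4.10 and 57.8 ± 7.04 TPM (SD, n = 4), with a log2 difference of 0.0091 (SE 0.0956, adjusted p = 0.963 by limma), the one closest to 0 among the members. siNT muscle 1 lay apart from the other siNT muscles, and without it the difference was -0.043. Without siUBA1 muscle 1 or siUBA1 muscle 3 the difference was also below 0, at -0.050 and -0.028.

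The ratio of Cops5 to Cops6 TPM was 0.942, 0.867, 0.853 and 0.930 in siNT muscles, and 0.917, 1.04, 0.867 and 0.976 in siUBA1 muscles. The groups overlapped, and the mean ratio was 0.898 ± 0.0444 in siNT and 0.949 ± 0.0731 in siUBA1 (SD, n = 4). The log2 difference of the ratio was 0.078 (SE 0.0661, two-sided exact permutation p = 0.314), higher in 3 of 4 mice. It was 0.035 without siUBA1 muscle 2 and 0.12 without siUBA1 muscle 3. The ratio thus lay between 0.853 and 1.04 in the 8 muscles.

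Among the scaffold subunits, Gps1 was at 38.3, 37.8, 37.8 and 35.4 TPM in siNT muscles, and at 45.6, 36.7, 41.3 and 37.9 TPM in siUBA1 muscles. siUBA1 muscles 1 and 3 were above all siNT muscles, and muscles 2 and 4 lay among them. Its log2 difference was 0.10 (SE 0.0770, adjusted p = 0.461 by limma), and 0.046 without siUBA1 muscle 1. Cops2, another PCI subunit, was at 37.9, 38.1, 41.1 and 44.8 TPM in siNT muscles, and at 49.4, 42.8, 44.6 and 41.2 TPM in siUBA1 muscles. It was higher in siUBA1 in 3 of 4 mice, with a log2 difference of 0.13 (SE 0.0802, adjusted p = 0.378 by limma), and 0.084 without siUBA1 muscle 1.

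Cops3 was at 35.6, 38.0, 36.4 and 39.9 TPM in siNT muscles, and at 42.4, 37.7, 39.1 and 39.8 TPM in siUBA1 muscles. Cops4 was at 28.0, 29.8, 28.5 and 30.4 TPM in siNT muscles, and at 33.5, 29.8, 32.8 and 28.5 TPM in siUBA1 muscles. The groups overlapped for both scaffold genes, with log2 differences of 0.082 (SE 0.0635) for Cops3 and 0.090 (SE 0.0697) for Cops4. Without siUBA1 muscle 1 these were 0.052 and 0.055.

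Cops8, the smallest of the PCI subunits, was at 33.6, 33.8, 34.7 and 35.3 TPM in siNT muscles, and at 39.5, 34.2, 37.5 and 36.5 TPM in siUBA1 muscles. Its siNT values were the tightest of the family on the log2 scale, and 3 of 4 siUBA1 muscles were above all of them. It was higher in siUBA1 in 4 of 4 mice, as were 32.2% of all genes tested, with a log2 difference of 0.099 (SE 0.0617, adjusted p = 0.393 by limma).

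Cops9, the small acidic subunit, was at 42.2, 45.4, 52.6 and 49.6 TPM in siNT muscles, and at 60.6, 44.5, 48.2 and 44.2 TPM in siUBA1 muscles. Only siUBA1 muscle 1 was above the siNT range, and in 3 of 4 mice the siUBA1 muscle was the lower of the pair. The log2 difference was 0.049 (SE 0.112, adjusted p = 0.817 by limma), with the largest spread within groups of the family (SD 0.177 on the log2 scale). Without siUBA1 muscle 1 the difference was -0.051, and without siNT muscle 1 it was -0.0046.

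The Cops7 paralogs showed the widest contrast within the family. Cops7a was at 57.9, 61.4, 58.6 and 60.1 TPM in siNT muscles, and at 65.5, 58.3, 65.7 and 59.3 TPM in siUBA1 muscles. Cops7b was at 3.55, 3.55, 3.84 and 3.41 TPM in siNT muscles, and at 4.44, 4.12, 4.52 and 3.65 TPM in siUBA1 muscles. For Cops7b, siUBA1 muscles 1, 2 and 3 were above all siNT muscles and muscle 4 was among them, while Cops7a values overlapped more widely.

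The log2 difference of Cops7a was 0.061 (SE 0.0628, adjusted p = 0.598 by limma), higher in 2 of 4 mice, and 0.037 without siUBA1 muscle 1 or 0.035 without siUBA1 muscle 3. That of Cops7b was 0.17 (SE 0.0775, adjusted p = 0.281 by limma), higher in 4 of 4 mice and the highest of the family. Its unadjusted p was 0.0515, and 0.0370 with the mouse as a block, where 22.4% of all genes were higher at an unadjusted p under 0.05 and the adjusted p was 0.176. It was also under 0.05 with a Kruskal-Wallis test and with TPM recomputed without mitochondrial genes, as was that of 17.5% and 22% of all genes in the same direction. After median-ratio scaling the difference was 0.076 (unadjusted p = 0.229 by limma, and 0.232 with the block). After quantile normalization it was 0.051 (unadjusted p = 0.398 by limma).

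The ratio of Cops7a to Cops7b TPM was 16.3, 17.3, 15.3 and 17.6 in siNT muscles, and 14.8, 14.2, 14.5 and 16.3 in siUBA1 muscles. This ratio does not depend on the scaling of a muscle. siUBA1 muscles 1, 2 and 3 were below all siNT muscles, and siUBA1 muscle 4 was level with siNT muscle 1. The mean was 16.6 ± 1.07 in siNT and 14.9 ± 0.916 in siUBA1 (SD, n = 4), and the log2 difference of the ratio was -0.15 (SE 0.0640). The ratio was lower in 4 of 4 mice. The two-sided exact permutation p was 0.0571 (0.114 adjusted over the 2 ratios tested), where the smallest p that 4 against 4 muscles allow is 0.0286. Within mice the exact sign-flip p was 0.125, the smallest that 4 mice allow. Cops7b made up between 5.37% and 6.59% of the TPM of the paralogs in the 8 muscles.

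**Figure D3:**
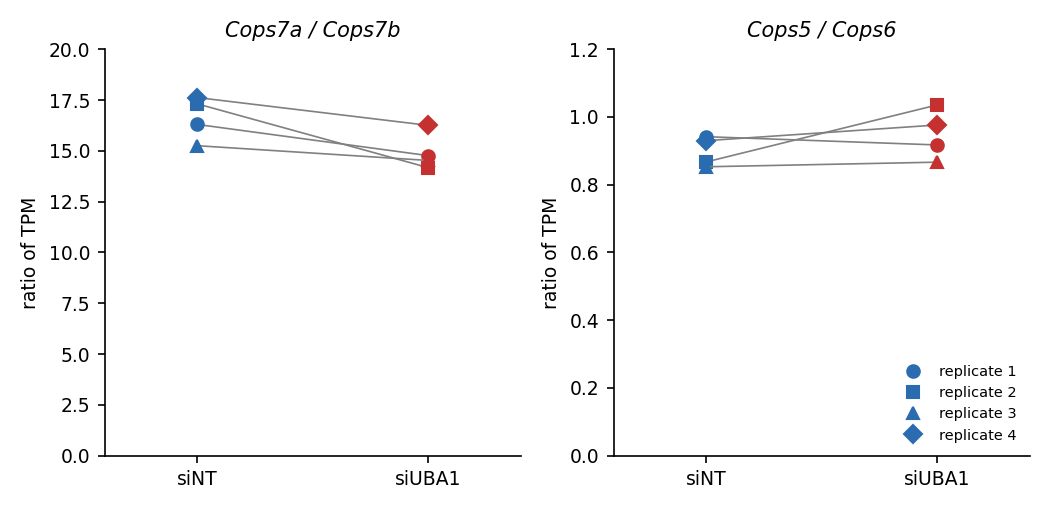
Ratios of Cops7a to Cops7b TPM and of Cops5 to Cops6 TPM in each muscle, with a line joining the siNT and siUBA1 muscles of each mouse. The Cops7a to Cops7b ratio is lower in the siUBA1 muscle of 4 of 4 mice, with means of 16.6 and 14.9, and the Cops5 to Cops6 ratio is higher in 3 of 4.

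The subunits varied together between muscles of the siUBA1 group. Their summed level was 376, 399, 404 and 412 TPM in siNT muscles 1 to 4, and 466, 390, 430 and 398 TPM in siUBA1 muscles 1 to 4. siUBA1 muscles 1 and 3 were above all siNT muscles, and siUBA1 muscles 2 and 4 were not. On log2(TPM + 1), 10 of 10 members were above their own mean over the 8 muscles in siUBA1 muscles 1 and 3, and 2 of 10 in siUBA1 muscles 2 and 4. In siUBA1 muscle 3 Cops9 was above it by only 0.0016, and in TPM it was below its mean there (48.2 and 48.4 TPM). The highest of the 8 values was in siUBA1 muscle 1 for 8 members and in siUBA1 muscle 3 for the other 2 (Cops7a and Cops7b). The lowest was in siNT muscle 1 for 7 members.

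The median of all genes was shifted in the same muscles. The median deviation of all genes tested from their own means was 0.14 and 0.13 on the log2 scale in siUBA1 muscles 1 and 3, and between -0.070 and -0.014 in the other 6 muscles. Size factors from median ratios were 1.12 in both of these muscles and 0.946 to 0.990 elsewhere. Genes encoded by mitochondrial DNA took 40.2% and 39.9% of all TPM in siUBA1 muscles 1 and 3, 50.3% and 46.5% in siUBA1 muscles 2 and 4, and 42.1% to 45.7% in siNT muscles. The part of these shares in the subunits' values was not tested. Without siUBA1 muscles 1 and 3, an alternative chosen after the data were seen, 5 of 10 members were above 0 (56.3% of all genes), and the members' median was 0.013, against 0.025 for all genes.

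**Figure D4:**
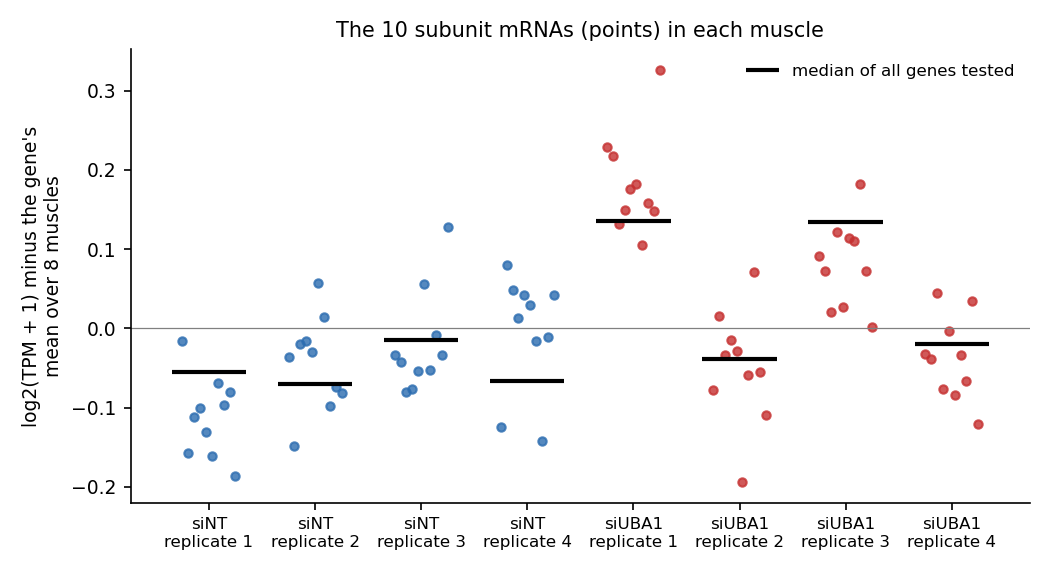
Deviation of each subunit from its own mean over the 8 muscles, on log2(TPM + 1), 1 column of points per muscle, with the median of all genes tested in that muscle. The points of siUBA1 muscles 1 and 3 lie above 0 for 10 of 10 members, where the median of all genes is 0.14 and 0.13.

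Within mice, 10 members were higher in the siUBA1 muscle of mouse pair 1, 5 in pair 2, 9 in pair 3 and 3 in pair 4. The members' median log2 difference in these pairs was 0.25, -0.0064, 0.11 and -0.032, and that of all genes 0.19, 0.030, 0.15 and 0.044. Of all genes, 83.3%, 56.1%, 81.8% and 61.8% were higher in the siUBA1 muscle of these pairs, so that in pair 4 most members were lower where most genes were higher. The members' median was above that of all genes in pair 1 and below it in the other 3 pairs.

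The make-up of the family overlapped between the groups. As a share of the summed TPM of the 10 members, Cops7a took 15.0% ± 0.488 in siNT and 14.8% ± 0.525 in siUBA1 muscles (SD, n = 4), and Cops7b took 0.903% ± 0.0570 and 0.995% ± 0.0701. Cops6 went from 14.4% to 13.7% and Cops2 from 10.2% to 10.6%, the largest shifts in percentage points, and the groups overlapped for 10 of 10 shares. The median SD of the members within groups was 0.0871 on the log2 scale, against 0.139 for all genes tested, and 0.0687 against 0.124 after median-ratio scaling. Cops8 had the smallest SD (0.0641), while Cops9 and Cops6 (0.177 and 0.144) lay above the median of all genes. Other gene lists used below also had medians under that of all genes, with 0.108 for the NEDD8 cycle, 0.113 for the proteasome lid and 0.111 for eIF3.

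The mean profile of the 10 members over the 8 muscles was matched most closely by Mff, which encodes a receptor for mitochondrial fission (root mean square difference 0.00865 on the log2 scale), then by Strap, an RNA-binding WD repeat protein (0.0149), and Hsd17b10, a mitochondrial dehydrogenase (0.0172). The likeness was measured over 8 muscles after centering each gene. Among the 11520 genes tested that are no members, the median difference was 0.128, and 3493 were within 0.1 of the profile. The members themselves lay between 0.0325 (Cops5) and 0.0925 (Cops9). A close match to this profile was therefore common.

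Of the genes of the NEDD8 cycle around the complex, 24 of 24 were tested and 0 passed an adjusted p under 0.05 (limma). At an unadjusted p under 0.05, 4 were higher (16% of all genes) and 1 was lower (1.98% of all genes). Their median log2 difference was 0.093, against 0.11 for all genes, and -0.016 after median-ratio scaling, against 0.0016. On the deposited scale 22 of 24 were above 0 (81.8% of all genes), and after median-ratio scaling 9 of 24 (50.7% of all genes). After that scaling 1 gene was higher at an unadjusted p under 0.05 (Cand2), against 4.43% of all genes, and 2 were lower (Dcun1d3 and Rnf7), against 6.18%. On the deposited TPM, all siUBA1 muscles were above all siNT muscles in 5 genes and below them in 1 gene, against 10.6% and 1.01% of all genes. The 5 genes were Cand2, Dcun1d2, Dcun1d4, Dcun1d5 and Cul2. Dcun1d2 and Cul2 are named only for this count, after their values were seen. After median-ratio scaling the log2 differences of Dcun1d2 and Cul2 were -0.040 and 3.6e-05.

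Cand2, a cullin exchange factor known for its expression in muscle, was at 50.3, 49.1, 51.4 and 47.9 TPM in siNT muscles, and at 62.3, 59.1, 68.2 and 57.4 TPM in siUBA1 muscles. Every siUBA1 muscle was above every siNT muscle. The means were 49.7 ± 1.504 and 61.7 ± 4.74 TPM (SD, n = 4), a log2 difference of 0.31 (SE 0.0677, adjusted p = 0.137 by limma), and 0.19 after median-ratio scaling (adjusted p = 0.237 by limma). The difference was above the median of all genes on both scales but did not pass the adjusted threshold on either.

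Dcun1d3, of the family of co-factors that help load NEDD8 onto cullins, was at 3.95, 3.81, 3.76 and 3.56 TPM in siNT muscles, and at 3.38, 2.58, 2.97 and 2.67 TPM in siUBA1 muscles. Every siUBA1 muscle was below every siNT muscle, opposite to the shift of all genes. The means were 3.77 ± 0.160 and 2.90 ± 0.362 TPM (SD, n = 4), a log2 difference of -0.29 (SE 0.0823, adjusted p = 0.166 by limma), and -0.39 after median-ratio scaling (adjusted p = 0.0516 by limma). It passed the adjusted threshold only with quantile normalization (adjusted p = 0.0467 by limma), of the 17 alternatives in which it was tested.

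In the list of 10 genes for NEDD8 conjugation, 3 were higher (16% of all genes) and 1 lower (1.98% of all genes) at an unadjusted p under 0.05. After median-ratio scaling 0 were higher and 1 was lower by limma (4.43% and 6.18% of all genes). Beside Dcun1d3 these were its family members Dcun1d4 (3.95 ± 0.267 and 4.63 ± 0.239 TPM, adjusted p = 0.227 by limma) and Dcun1d5 (25.3 ± 0.888 and 28.1 ± 1.02 TPM, adjusted p = 0.244 by limma), and Nae1, a subunit of the E1 enzyme for NEDD8 (5.74 ± 0.237 and 6.61 ± 0.544 TPM, adjusted p = 0.258 by limma). Dcun1d3 was lower in the siUBA1 muscle of 4 of 4 mice, as were 2.98% of all genes, and Dcun1d4, Dcun1d5 and Nae1 were higher in 4 of 4, as were 32.2% of all genes. The log2 differences of Dcun1d4, Dcun1d5 and Nae1 were 0.19, 0.14 and 0.17, and 0.088, 0.026 and 0.068 after median-ratio scaling. None of the 8 cullins and RING partners reached an unadjusted p under 0.05, from Rnf7 at -0.0046 to Cul1 at 0.16 on the log2 scale. In the list of 6 genes for NEDD8 removal and cullin exchange, Cand2 alone was higher at an unadjusted p under 0.05, and Usp15 had the lowest log2 difference (0.030).

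**Figure D5:**
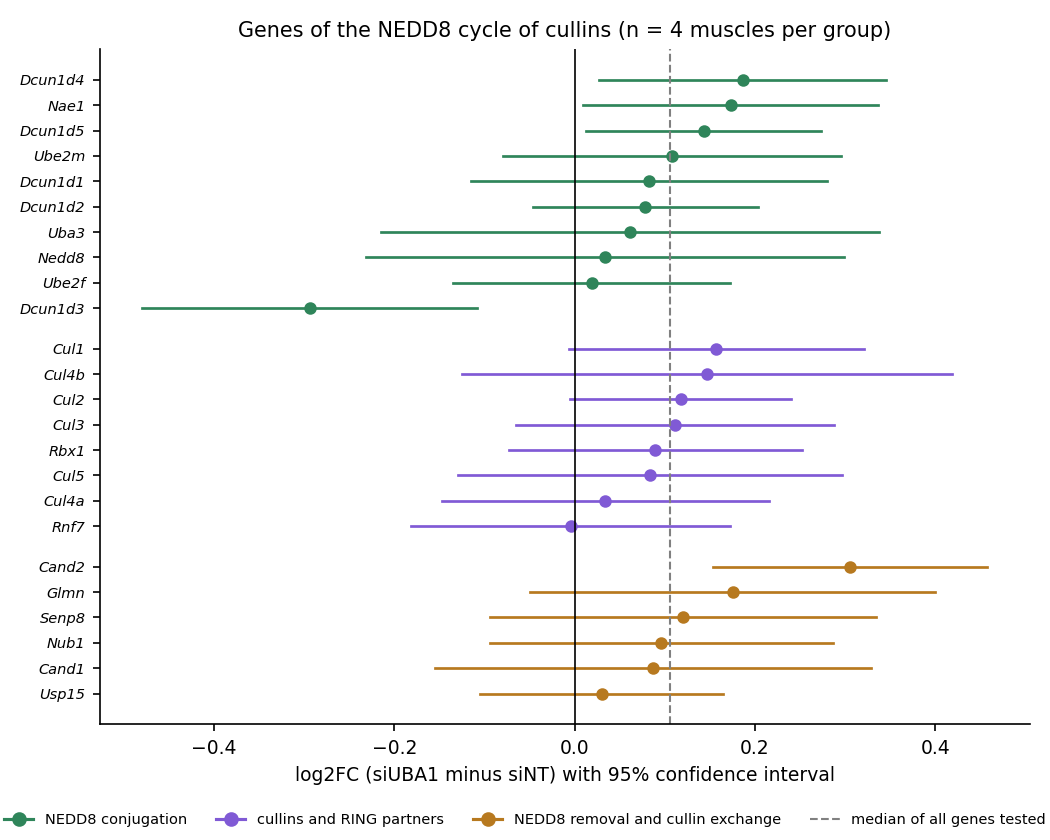
Log2 difference (siUBA1 minus siNT, on log2(TPM + 1)) with its 95% interval for the 24 genes of the NEDD8 cycle, grouped by role. The line is the median of all genes tested. Cand2 lies highest at 0.31 and Dcun1d3 lowest at -0.29.

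The lid of the proteasome and the translation factor eIF3 are built from PCI and MPN subunits like the COP9 signalosome, and they served for comparison. The median siNT level was 39.0 TPM for the COP9 subunits, 39.0 TPM for 9 lid subunits and 40.8 TPM for 8 eIF3 subunits, against 6.95 TPM for all genes tested. The median log2 differences were 0.088, 0.093 and 0.052, and -0.031, -0.026 and -0.068 after median-ratio scaling. With that scaling 2 of 10, 2 of 9 and 1 of 8 genes were above 0, against 50.7% of all genes. In the lid 0 of 9 genes reached an unadjusted p under 0.05 by limma (16% of all genes were higher and 1.98% lower), from Psmd12 at -0.0056 to Psmd6 at 0.15. In eIF3, Eif3f, an MPN subunit, was the 1 of 8 that did (0.19, adjusted p = 0.184 by limma). After median-ratio scaling it was at 0.070 and no longer did. Eif3k had the lowest value on the deposited scale (-0.0080). The difference between these complexes was not tested.

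In bulk muscle, fewer cells of a type and less RNA per cell cannot be told apart. The summed level of 8 fast muscle markers was 126468 to 138138 TPM in siNT and 101611 to 141377 TPM in siUBA1 muscles, with Acta1 between 28196 and 42479 TPM, so that the defining markers of the labelled tissue were abundant in every muscle. Of these markers 7 of 8 were below 0 (18.2% of all genes), with a median log2 difference of -0.086, and 0 reached an unadjusted p under 0.05 by limma. After median-ratio scaling 3 of them (Acta1, Tnnt3 and Mylpf) were lower at that level, as were 6.18% of all genes. Leukocyte markers summed to 111 to 332 and 112 to 366 TPM, endothelial markers to 107 to 149 and 120 to 146 TPM, and Schwann cell markers to 34.7 to 56.5 and 26.6 to 67.1 TPM. Fibroblast and tendon markers summed to 401 to 861 and 515 to 1061 TPM, with 6 of 6 above 0 (81.8% of all genes) and Scx higher at an unadjusted p under 0.05 (16% of all genes). Pdgfra and Col1a1 joined it with the mouse as a block, and none of these markers was higher at that level after median-ratio scaling by limma. Adipocyte markers summed to 7.51 to 14.3 and 1.32 to 11.1 TPM, with 3 of 3 below 0 (18.2% of all genes) and Cidec lower at an unadjusted p under 0.05 (1.98% of all genes), joined by Adipoq with the block or after median-ratio scaling. The leukocyte marker S100a8 was higher at that level with the block, under which 22.4% of all genes were higher and 2.8% lower. Satellite cell markers summed to 2.87 to 4.51 and 3.32 to 4.28 TPM, and the T cell marker Cd3e was at or near 0 in all muscles. Each of these ranges overlapped between the groups, and their part in the values of the subunits was not tested.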

How the data were processed

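RNA from 8 TA muscles (4 siNT, 4 siUBA1) was sequenced, and per the study's methods paired-end reads were mapped to the mouse genome (GRCm39) in CLC Genomics Workbench. The authors deposited 1 table of TPM, in which each muscle has the same sum, so that sequencing depth is unknown and no counting interval is given. The gene annotation and the handling of reads that map to several genes are not given in the sources used here.

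Genes with 1 TPM or more in at least 4 of 8 muscles were tested on log2(TPM + 1) with limma (lmFit and eBayes with trend, version 3.58.1 in R 4.3.3), siUBA1 against siNT without a block, and p-values were adjusted by Benjamini-Hochberg over all 11530 genes. A fold change on this scale understates the change of low genes. Ratios were tested by two-sided exact permutation (Python 3.11.15). Same-numbered muscles come from 1 mouse, per the study's methods and titles. Their deviations from the group means correlated at -0.00037, 0.20, 0.58 and 0.54 in mice 1 to 4, numbered here by replicate.

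Named were all members, and in each other list the genes at an unadjusted p under 0.05 (up to 4) and the highest and lowest log2 difference, plus the 3 genes most like the family's mean profile. The members and lists were chosen with earlier results of these data known. Alternatives were another pseudocount (0.1), no filter, a mean of 5 TPM or more, median-ratio scaling, quantile normalization, TPM without mitochondrial genes, a replicate block, a Kruskal-Wallis test, and leaving out each muscle. The script for the fit was tested on simulated data.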

Additional observations from a re-analysis of the deposited data

Results flagged for a closer look

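In 6 of the 114 sets of 4 values examined for the genes above, 1 muscle lay farther from the others than Dixon's 95% critical value allows, where chance gives about 5.7. Among the COP9 subunits, 1 such value was found: Cops6 was at 51.12 TPM in siNT muscle 1 and between 58.51 and 59.64 TPM in the other siNT muscles. Dcun1d4 was at 3.556 TPM in siNT muscle 3, with the other siNT muscles between 4.048 and 4.138 TPM. The same gene was at 4.989 TPM in siUBA1 muscle 2, with the other siUBA1 muscles between 4.47 and 4.544 TPM. Cul3, the cullin of ligases with BTB receptors, was at 112.1 TPM in siNT muscle 4 and between 90.05 and 92.84 TPM in the other siNT muscles. Usp15, a deubiquitinase that associates with the COP9 signalosome, was at 18.86 TPM in the same siNT muscle and between 16.82 and 17.15 TPM in the others. Senp8, a protease that processes NEDD8, was at 3.914 TPM in siUBA1 muscle 1 and between 2.968 and 3.087 TPM in the other siUBA1 muscles. The causes of these values were not tested.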

How the results depend on the processing

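No subunit passed an adjusted p under 0.05 in any of the 18 alternatives run, and none was lower at an unadjusted p under 0.05. Among them the Kruskal-Wallis test bears little on this, since its smallest unadjusted p is 0.0209 with 4 against 4 muscles and its smallest adjusted p over all genes was 0.1797. The count of subunits higher at that level was 0 in the unblocked fit. It was 1 without mitochondrial genes, with the replicate block and with the Kruskal-Wallis test (Cops7b each time). Of all genes, 22%, 22.4% and 17.5% were higher at that level in these. The count was 0 to 1 when single muscles were left out (Cops2 without siNT replicate 4, Cops7b without siUBA1 replicate 4). In the fits without these muscles, 17.7% and 19.8% of all genes were at that level in either direction. The subunits' median log2 difference was -0.031 once muscles were scaled by median ratios (the same with the replicate block added) and 0.049 to 0.11 when single muscles were left out. With this scaling, blocked or not, the log2 differences below 0 were -0.014 (Gps1), -0.037 (Cops3), -0.028 (Cops4), -0.034 (Cops5), -0.11 (Cops6), -0.058 (Cops7a), -0.019 (Cops8) and -0.070 (Cops9). With quantile normalization they were -0.054 (Cops6), -0.013 (Cops7a) and -0.023 (Cops9). Excluding siUBA1 replicates 1 and 3, they were -0.0028 (Gps1), -0.00079 (Cops4), -0.13 (Cops6), -0.016 (Cops7a) and -0.090 (Cops9). Leaving out single muscles gave -0.050 to 0.075 for Cops6 and -0.051 to 0.10 for Cops9. Cops2 and Cops7b were above 0 in every alternative that tested them, and Cops7b was not tested at a mean of 5 TPM or more.

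Over all genes, limma made 3 calls at the adjusted threshold, against 57 with the replicate block, 76 with the block plus scaling by median ratios, 23 with that scaling alone, 28 after quantile normalization, 13 without mitochondrial genes, 11 among genes averaging 5 TPM or more, and 2 to 39 when single muscles were left out (39 without siUBA1 replicate 4). The Kruskal-Wallis test made 0 (2210 at an unadjusted p under 0.05), and limma 0 excluding siUBA1 replicates 1 and 3 (1670 at an unadjusted p under 0.05). Of the 24 genes of the NEDD8 cycle, 5 were at an unadjusted p under 0.05 (18% of all genes), against 7 with no filter (12.6%), 7 with the Kruskal-Wallis test (19.2%), 3 once scaled by median ratios (10.6%), 2 after quantile normalization (9.61%), 2 with the block plus median-ratio scaling (15.7%), 3 excluding siUBA1 replicates 1 and 3 (14.5%), and 3 to 6 when single muscles were left out (11.6% to 19.8%). Of the 18 that averaged 5 TPM or more the count was 3 (17.9%). Outside the marker lists, among the members and the genes in the pathway and comparison lists, the replicate block changed the call of Uba1 and Cops7b, given above, and of Nae1 (unadjusted p = 0.0402 without it and 0.0570 with it by limma). Both ratios kept their direction in 10 of 10 alternatives each. With a pseudocount of 1 the two-sided exact permutation p was 0.0857 for Cops7a to Cops7b and 0.314 for Cops5 to Cops6. With 1 muscle left out the p of this test was 0.0571 to 0.143 and 0.171 to 0.6. Within 4 mice the smallest p of the exact sign-flip test is 0.125. TPM keeps no depth, so that the precision of low genes such as Cops7b cannot be set.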
